A study of Mus musculus with 31 samples.

Results

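The tumors described here are RM-9 tumors taken 3 h (RT 3 h) and 12 h (RT 12 h) after radiation. They make up 8 of the 31 libraries of the series, chosen by their labels, with 4 mice in each group and 1 library per mouse. RM-9 is a mouse prostate cancer cell line and MC-38, the other tumor model of the series, is a mouse colon cancer cell line. Cells were injected under the skin of the right hind leg of male C57BL/6J mice, bought at 6 to 7 weeks of age, and tumors of about 8 mm received 15 Gy in a single fraction. RNA came from about 50 mg of whole tumor and was sequenced as poly-A selected, stranded libraries with 75-base single reads. Both groups carry the same line, host and dose and differ in the hours after RT, so the comparison asks which early changes had ended by 12 h and which had begun after 3 h. Unirradiated RM-9 tumors (control, n = 4, labelled with the 3 h time) and tumors 24 h after RT (n = 3) were used to place both levels. No control carries the 12 h time. Radiation response and the passing of time therefore cannot be told apart, either in RT 12 h against control or in RT 12 h against RT 3 h.

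RM-9 is 1 transplanted line, and each library mixes its cells with those of the host. In such bulk RNA, fewer cells of a type and less RNA per cell cannot be told apart. Of the 13 markers listed for the tumor cells and prostate epithelium, 9 passed the filter on low values and none was called different between 3 h and 12 h. Their summed level was 6255 to 8039 TPM at 3 h and 5154 to 7767 TPM at 12 h. Skeletal muscle markers summed to 10.0 to 2402 TPM at 3 h and 9.74 to 2687 TPM at 12 h, so single libraries of both groups held muscle RNA.

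Ionizing radiation breaks DNA, and the ATM and ATR kinases answer by halting cells before mitosis and by stabilizing the transcription factor p53. p53 turns on genes of arrest, repair and cell death, among them Cdkn1a, Mdm2 and Apaf1. Genes needed for mitosis are transcribed late in the cell cycle and many are repressed after DNA damage, whereas the genes of DNA replication are transcribed mainly at the G1/S border under E2F factors. Many promoters of late genes carry a CCAAT box, bound by NF-Y, near a cell cycle genes homology region (CHR), bound by the DREAM and MMB complexes.

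Expression was compared as TPM (transcripts per 1000000), summed per gene and rescaled after genes of the mitochondrial chromosome (MT) were left out. A gene was tested where its mean over the 15 RM-9 libraries was at least 0.5 TPM, and was called where limma's Benjamini-Hochberg adjusted p was under 0.05 on log2(TPM + 0.5), a scale that understates the change of low genes. Values are printed for mouse 1 to mouse 4 of a group, and mice of different groups are unrelated. Of 15329 genes tested between RT 12 h and RT 3 h, 36 (0.235%) were higher at 12 h and 217 (1.42%) were lower. The genes with an unadjusted p under 0.05 numbered 411 higher and 3645 lower. The fit took the spread between mice from all 4 RM-9 groups, and with only RT 3 h and RT 12 h in it 0 genes were called (350 higher and 3510 lower at an unadjusted p under 0.05, smallest adjusted p = 0.0922 by limma). Log2 fold changes of the called genes were 0.31 to 1.14 in size among those that rose and 0.23 to 0.94 among those that fell, and 2 were above 1. The median over all genes tested was -0.13, so a list with this median moved with the bulk of genes.

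The fall was linked to transcript length. Across 15244 genes with a known longest transcript, the log2 fold change and the length had a Spearman correlation of -0.460, given as a description since all genes share the same 8 libraries. Genes were split by length into 10 bins of equal size. The bin with the shortest transcripts, of median length 410 bases, had a median log2 fold change of 0.05, and the bin with the longest, of median length 7752 bases, had -0.35. The longest bin held 49 of the 217 genes that fell and 0 of the 36 that rose. Genes called lower had a median transcript of 4355 bases, genes called higher 2561.5 bases and all tested genes 2920.5 bases. In single libraries, the correlation of each gene's deviation from its RM-9 mean with length was 0.427, 0.212, 0.253 and 0.440 in the RT 3 h mice and -0.366, 0.302, -0.105 and -0.226 in the RT 12 h mice. RT 12 h mouse 2 thus stood with the 3 h tumors and apart from the other 3 mice of its group. Control mice had -0.197, -0.467, 0.2175 and -0.179. Log2 fold changes against control had a Spearman correlation with length of 0.454 at 3 h, 0.083 at 12 h and 0.045 at 24 h. The 3 h positions against control, used for the classes below, therefore went with length too. In MC-38 tumors the same comparison ran the other way, from -0.05 in the shortest bin to 0.17 in the longest. The part of transcript length in the results was not tested. For this reason the G2/M, p53 and replication lists, the classes and some other lists are also given with a trend on length removed from every library. This alternative was chosen after the data were seen.

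**Figure D1:**
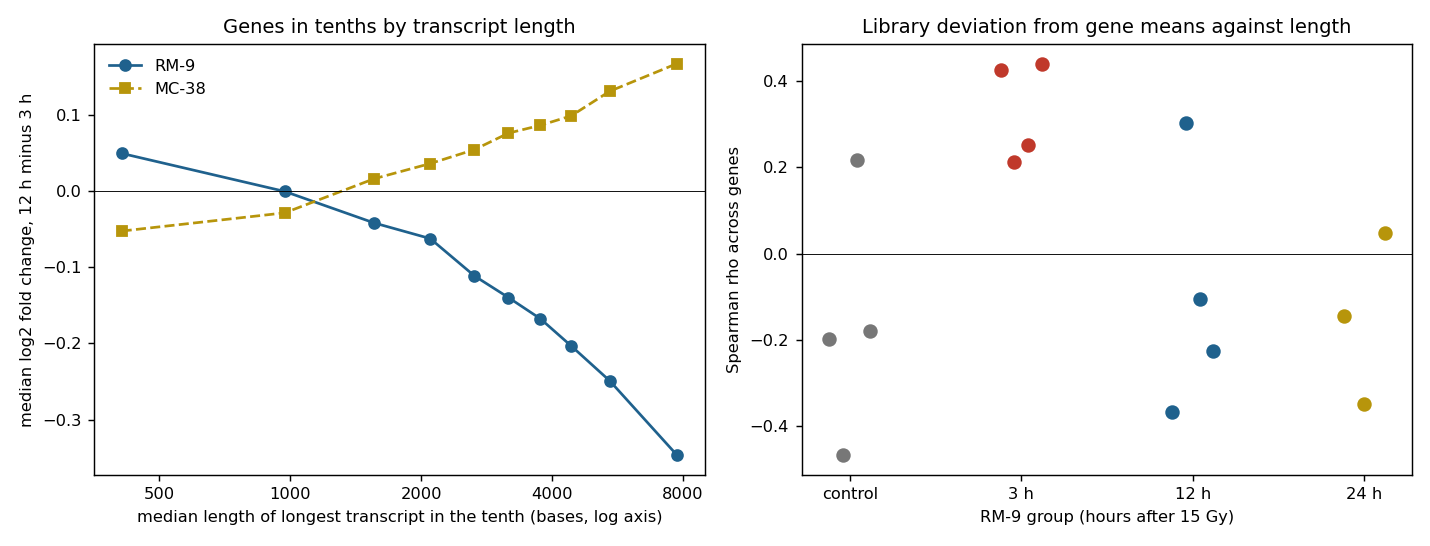
Left, median log2 fold change from 3 h to 12 h after RT in 10 bins of genes by the length of their longest transcript (bases, log axis), in RM-9 (circles) and MC-38 (squares). Right, Spearman correlation across genes between a library's deviation from the gene means and transcript length, 1 point per mouse in each RM-9 group. The RM-9 line falls from 0.05 to -0.35, the MC-38 line rises from -0.05 to 0.17, and all 4 RT 3 h mice lie at or above 0.212 while 3 of 4 RT 12 h mice lie below 0.

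With the length trend removed, 82 genes (0.535%) were higher at 12 h and 31 (0.202%) were lower. Of the 36 and 217 genes called before, 35 and 30 were called again, and all kept their direction. Scaling by median ratios gave 93 higher (0.607%) and 30 lower (0.196%). It kept 36 of the 36 and 30 of the 217 calls, while the Spearman correlation with length stayed at -0.452. Leaving out also the nuclear copies of mitochondrial genes on chromosome 1 gave 23 higher (0.147%) and 14 lower (0.0896%). The share of calls that were rises was thus 14.2% as reported, 72.6% without the length trend, 75.6% under median ratios, 62.2% without the nuclear copies and 1.16% in TPM as deposited. Single mice also set these counts. Leaving out RT 3 h mouse 1, 2, 3 or 4 gave 4, 4, 20 or 19 rises and 4, 0, 126 or 3 falls. Leaving out RT 12 h mouse 1, 2, 3 or 4 gave 3, 272, 0 or 3 rises and 0, 2074, 0 or 0 falls. The genes that rose and fell are therefore described below by group, with the calls that the scalings left.

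The rises were led by genes of mitosis. Of 50 genes on a list of G2/M and mitosis, 14 were higher at 12 h and 0 lower, against 0.235% higher among all genes. Their median log2 fold change was 0.35 (-0.13 over all genes), 49 of 50 values were positive (45 to 50 when 1 mouse was left out), and in 19 members every RT 12 h mouse lay above every RT 3 h mouse, against 1.18% of all genes. Once the length trend was removed 25 of 50 were higher, with a median of 0.53 where that of all genes was -0.0070, and under median ratios 23. With only both times in the fit 0 were called and 26 had an unadjusted p under 0.05 (limma). Against control, the list's median was -0.23 at 3 h, 0.08 at 12 h and -0.22 at 24 h. The same control and RT 3 h libraries enter these medians, so they are set side by side only. Without RT 3 h mouse 1, 2 or 3 the list had 3, 3 or 6 calls, and without RT 12 h mouse 1, 3 or 4 it had 2, 0 or 2. Leaving out 1 mouse at a time after removing the length trend gave 15 to 31.

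The upstream sequences of 3 of these genes and of 1 replication gene show letters whose frequency was compared between the lists. Sequences are those of RefSeq for GRCm38.p6, 250 bases up to the start site, 5′ to 3′ on the gene's strand. In Cdkn3, Ube2c and Cdc20 capitals mark the CCAAT box (CCAAT) and the CHR (TTTGAA) on either strand, and in Mcm6 they mark only E2F letters (TTTCCCGC, TTTCGCGC, TTTGCCGC or TTTGGCGC) on either strand. CCAAT letters also occur in Mcm6, read on this strand as ATTGG, and are left in lower case there. Adjacent or overlapping matches run together, as in Ube2c and Mcm6. The windows are chr14:46760291-46760540, plus strand for Cdkn3, chr2:164769679-164769928, plus strand for Ube2c, chr4:118437344-118437593, minus strand for Cdc20 and chr1:128359706-128359955, minus strand for Mcm6.
Cdkn3: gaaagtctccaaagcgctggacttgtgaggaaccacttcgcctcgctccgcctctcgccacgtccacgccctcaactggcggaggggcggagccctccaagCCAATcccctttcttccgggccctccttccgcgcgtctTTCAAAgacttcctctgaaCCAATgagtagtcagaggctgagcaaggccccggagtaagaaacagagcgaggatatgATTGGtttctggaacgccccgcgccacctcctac
Ube2c: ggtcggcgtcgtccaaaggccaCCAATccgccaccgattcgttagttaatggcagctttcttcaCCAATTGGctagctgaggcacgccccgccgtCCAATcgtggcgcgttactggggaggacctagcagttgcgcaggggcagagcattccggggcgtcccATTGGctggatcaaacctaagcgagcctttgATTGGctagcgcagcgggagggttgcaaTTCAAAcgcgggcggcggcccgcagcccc
Cdc20: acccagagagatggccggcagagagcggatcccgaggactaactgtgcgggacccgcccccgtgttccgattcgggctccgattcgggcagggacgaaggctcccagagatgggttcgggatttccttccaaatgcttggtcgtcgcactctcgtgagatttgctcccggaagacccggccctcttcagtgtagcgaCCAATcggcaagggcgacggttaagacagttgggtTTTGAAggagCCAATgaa
Mcm6: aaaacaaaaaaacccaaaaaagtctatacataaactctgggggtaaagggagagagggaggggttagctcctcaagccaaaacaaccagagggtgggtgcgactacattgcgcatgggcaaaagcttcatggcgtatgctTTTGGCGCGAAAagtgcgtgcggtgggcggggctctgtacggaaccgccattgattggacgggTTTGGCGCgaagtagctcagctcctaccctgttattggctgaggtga
The CHR letters lie 111 to 106 bases before the start in Cdkn3, 29 to 24 in Ube2c and 18 to 13 in Cdc20, with CCAAT letters on at least 1 side of each.

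Promoters were available for 41 of the 50 G2/M genes and for 33 of 40 genes of replication and G1/S, counted over 300 bases that end 50 bases past the start. CCAAT was found in 33 of the 41 G2/M promoters (80.5%), the CHR in 31 (75.6%) and both in 28 (68.3%). Among the 9907 promoters of all genes tested these shares were 38.9%, 11.7% and 4.94%, and among all 32851 RefSeq promoters they were 37.4%, 17.9% and 6.95%. Of the 14 G2/M genes called higher, 13 had a promoter, and 10 of those held both motifs. E2F letters were found in 3 of 41 G2/M promoters (7.32%), in 12 of 33 replication promoters (36.4%), in 4.01% of the promoters of genes tested and in 2.26% of all promoters. The replication promoters held CCAAT in 21 of 33 (63.6%), so this motif was frequent in both lists, and the CHR in 15.2%. A match describes letters in a window and is not a bound site.

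Cdkn3 (ENSMUSG00000037628, chr14:46760541-46771525, plus strand), a phosphatase that acts on cyclin-dependent kinases, rose most among the called members of the G2/M list. Its level was 7.05, 9.46, 9.22 and 12.1 TPM in the 4 RT 3 h mice and 18.7, 20.3, 22.2 and 19.1 TPM in the 4 RT 12 h mice, a 2.10-fold difference (log2 fold change 1.07, SE 0.13, limma adjusted p = 0.00926). Every 12 h tumor lay above every 3 h tumor, and the 12 h values overlapped those of control, 16.4 to 20.6 TPM. Cenpa (ENSMUSG00000029177, chr5:30666777-30674830, plus strand), the histone H3 variant of centromeres, was at 83.3, 95.9, 81.7 and 100.1 TPM at 3 h and at 163, 137, 156 and 155 TPM at 12 h (log2 fold change 0.76, SE 0.10, limma adjusted p = 0.00926). The groups did not overlap, and control tumors at 104 to 145 TPM lay above all 3 h tumors. Aurka (ENSMUSG00000027496, chr2:172356190-172370535, minus strand), the spindle pole kinase, was at 54.1, 57.6, 53.04 and 65.4 TPM at 3 h and 84.1, 89.7, 92.5 and 84.3 TPM at 12 h (log2 fold change 0.61, SE 0.08, limma adjusted p = 0.00926). Here all 3 h tumors were below and all 12 h tumors above the control range of 69.8 to 83.7 TPM.

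Several kinases and cyclins of mitotic entry were also called higher, though not Cdk1 itself. Plk1 (ENSMUSG00000030867, chr7:122159437-122169875, plus strand), which acts from entry to exit of mitosis, was at 40.9, 45.1, 40.2 and 56.4 TPM at 3 h and 66.0, 75.8, 79.5 and 66.4 TPM at 12 h (log2 fold change 0.66, SE 0.13, limma adjusted p = 0.0360). The cyclins that activate Cdk1 followed, with Ccnb1 at 48.98, 48.04, 42.2 and 55.5 TPM against 60.96, 84.1, 73.4 and 77.7 TPM (log2 fold change 0.60, SE 0.13, limma adjusted p = 0.0452). Ccnb2 was at 41.8, 46.1, 35.1 and 48.9 TPM at 3 h and at 56.5, 65.9, 75.9 and 68.05 TPM at 12 h (log2 fold change 0.63, SE 0.11, limma adjusted p = 0.0344). For these 3 genes no mouse of one time reached the other, and all 3 h tumors lay below all control tumors. Cdc25c, the phosphatase that switches on Cdk1, rose by 0.57 (adjusted p = 0.0486), but its ranges of 6.09 to 9.65 TPM and 9.22 to 13.04 TPM overlapped. Nek2, a kinase that parts the centrosomes, was at 16.7 to 22.2 TPM at 3 h and 25.5 to 27.2 TPM at 12 h (log2 fold change 0.45, SE 0.10, limma adjusted p = 0.0452).

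Genes of the spindle and of anaphase behaved alike in direction but differed in where 3 h stood against control. Ube2c (ENSMUSG00000001403, chr2:164769898-164778822, plus strand), the ubiquitin-conjugating enzyme of the anaphase-promoting complex, was at 222, 242, 219 and 272 TPM at 3 h and 343, 327, 375 and 367 TPM at 12 h (log2 fold change 0.57, SE 0.09, limma adjusted p = 0.0228). Its 12 h tumors lay above the control range of 255 to 317 TPM, which the 3 h tumors overlapped. Prc1, which bundles microtubules of the midzone, was at 48.6, 49.4, 48.8 and 63.4 TPM and 72.1, 87.6, 81.6 and 78.2 TPM (log2 fold change 0.61, SE 0.10, limma adjusted p = 0.0234). Hmmr, a spindle-associated protein, was at 23.7, 23.3, 20.6 and 30.6 TPM and 33.96, 44.3, 42.6 and 36.9 TPM (log2 fold change 0.68, SE 0.13, limma adjusted p = 0.0344), and Nusap1, another microtubule binder, had a log2 fold change of 0.68 (adjusted p = 0.0344). All 12 h tumors exceeded all control tumors in Prc1, Hmmr and Nusap1 as well. Cdc20, the activator of the anaphase-promoting complex, was below control at 3 h and within its range at 12 h: 45.1, 50.6, 47.1 and 59.6 TPM at 3 h and 73.3, 71.6, 85.01 and 73.4 TPM at 12 h beside 66.01 to 104 TPM in control (log2 fold change 0.58, SE 0.13, limma adjusted p = 0.0486). Cdca8, a subunit of the chromosomal passenger complex, had 0.44 (adjusted p = 0.0464) with no overlap.

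Other proliferation genes did not pass the test between 3 h and 12 h. Mki67, the gene of the Ki-67 antigen, was at 20.4, 20.02, 16.6 and 30.97 TPM at 3 h and 18.9, 22.1, 18.9 and 19.7 TPM at 12 h (log2 fold change -0.10, adjusted p = 0.725 by limma). Top2a, the topoisomerase of chromosome condensation, was at 80.2 to 121 TPM and 90.2 to 115 TPM (log2 fold change 0.10, SE 0.11). Values for Cdk1 were 0.15 (SE 0.17) and for Aurkb 0.01 (SE 0.12). Mki67 was the 1 member of the list with a value below 0, and with the length trend removed its value was 0.25 (adjusted p = 0.391). At 24 h, Cdkn3 was at 13.5, 15.6 and 12.9 TPM, Ube2c at 229, 273 and 248 TPM and Prc1 at 53.03, 55.4 and 60.9 TPM. These 24 h levels were below every RT 12 h mouse for all 3 genes. In Ccnb1, Ccnb2, Cdc20 and Hmmr the highest 24 h tumor, at 64.4, 60.8, 80.95 and 34.3 TPM, lay within the 12 h range. The change from 12 h to 24 h was not tested.

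**Figure D2:**
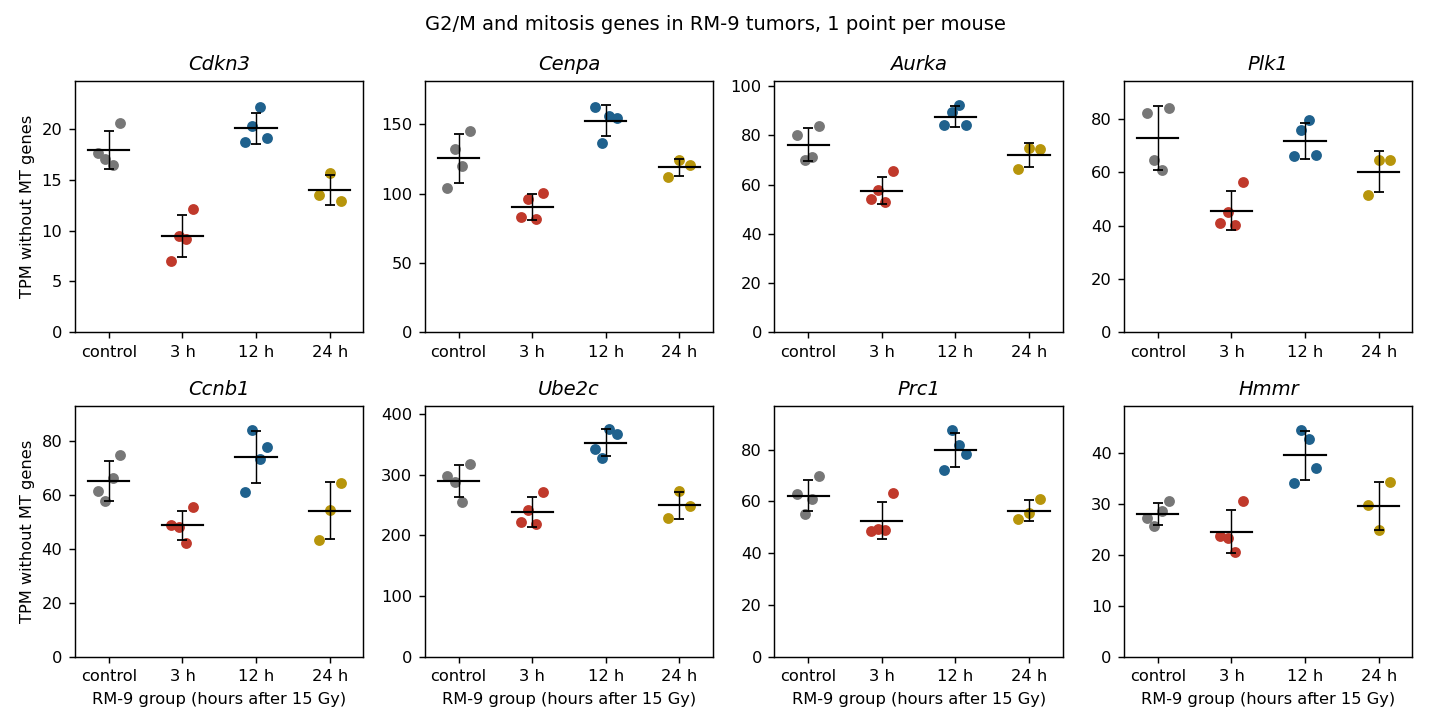
TPM without MT genes for 8 G2/M and mitosis genes in RM-9 tumors, 1 point per mouse, in control and 3, 12 and 24 h after 15 Gy. Bars give the mean and whiskers the SD. In all 8 panels the 4 RT 12 h mice lie above the 4 RT 3 h mice, and the 24 h mean is below the 12 h mean.

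Among the 12 largest rises by the naming rule, 7 were not on the G2/M list. The largest of all was 1190002F15Rik (ENSMUSG00000098318, chr6:134929092-134951718, plus strand), annotated as the long noncoding RNA Lockd, at 5.51, 7.87, 7.27 and 8.33 TPM at 3 h and 18.9, 13.98, 17.97 and 15.2 TPM at 12 h (log2 fold change 1.14, SE 0.14, limma adjusted p = 0.00926). Control tumors, at 10.4 to 12.9 TPM, lay between both groups without overlap. Pif1, a DNA helicase, was at 4.57, 5.41, 4.05 and 5.68 TPM and 8.47, 8.16, 8.75 and 9.01 TPM (log2 fold change 0.75, SE 0.15, limma adjusted p = 0.0349). Sapcd2, a regulator of spindle orientation, was at 5.31, 5.18, 4.79 and 6.36 TPM and 9.41, 9.59, 8.72 and 9.01 TPM (log2 fold change 0.72, SE 0.14, limma adjusted p = 0.0344). Terf1, a protein of telomeres, was at 14.2, 19.6, 13.1 and 16.3 TPM and 25.3, 22.7, 24.7 and 27.2 TPM (log2 fold change 0.66, SE 0.13, limma adjusted p = 0.0344). Arl6ip1, a membrane protein of the endoplasmic reticulum, was at 59.4, 76.1, 68.96 and 80.2 TPM and 113, 93.6, 122.7 and 115 TPM (log2 fold change 0.64, SE 0.10, limma adjusted p = 0.0234). In these 5 genes no 12 h mouse reached down to the 3 h range. Ugt1a6a, a glucuronosyltransferase, had 0.74 (adjusted p = 0.0344), and the value is uncertain because genes of its cluster share exons. Gm26737, annotated as antisense, had 0.74 (adjusted p = 0.0277), and it is not given in the sources used here whether counting used the strand. Of all 36 genes that rose, 36 had a value below 0 at 3 h against control, 14 were called lower there (0.215% of all genes) and 0 were called at 12 h against control (0.0652% of all genes higher). The same RT 3 h libraries enter both contrasts, and of all 4373 genes with a value above 0 from 3 h to 12 h, 76.0% had a value below 0 at 3 h against control.

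Some targets of p53 fell from their 3 h level. Of 35 listed targets, 5 were lower at 12 h and 0 higher, against 1.42% lower among all genes. Their median log2 fold change was -0.33 (-0.13 over all genes), 30 values were negative (71.5% of all genes were), and in 12 members every 12 h mouse lay below every 3 h mouse, against 13.7% of all genes. Against control the list's median was 0.51 at 3 h, 0.21 at 12 h and 0.23 at 24 h. At 3 h, 20 members lay wholly above control, against 10.0% of all genes, and at 12 h 9 did, against 1.36%. With the length trend removed the median was -0.21, where that of all genes was -0.0070, and 1 member, Apaf1, was called. Median ratios gave a list median of -0.20 and left 3 calls, and a fit of only both times left 0. Leaving out RT 3 h mouse 1, 2 or 4 or RT 12 h mouse 1, 3 or 4 left 0 calls, and leaving out RT 12 h mouse 2 gave 11.

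Apaf1 (ENSMUSG00000019979, chr10:90989311-91082770, minus strand), the core of the apoptosome, was at 19.6, 23.4, 20.4 and 29.2 TPM at 3 h and 11.54, 14.4, 13.7 and 14.2 TPM at 12 h (log2 fold change -0.75, SE 0.13, limma adjusted p = 0.0270, and -0.47 with adjusted p = 0.0374 with the length trend removed). All 3 h tumors lay above control, and the 12 h range fell back onto the control range of 12.1 to 15.3 TPM. Trp53inp1 (ENSMUSG00000028211, chr4:11156431-11174379, plus strand), a p53 cofactor of cell death and autophagy, was at 18.98, 30.4, 19.7 and 34.7 TPM and 11.9, 11.7, 14.4 and 13.9 TPM (log2 fold change -0.93, SE 0.18, limma adjusted p = 0.0349). It was lower at 12 h than at 3 h yet still above every control tumor, whose range was 6.14 to 8.15 TPM. Zmat3, an RNA-binding zinc finger protein, was at 46.9, 44.1, 42.9 and 55.6 TPM and 30.5, 37.2, 31.5 and 31.9 TPM (log2 fold change -0.52, SE 0.10, limma adjusted p = 0.0344). Ercc5, the XPG nuclease of nucleotide excision repair, was at 28.9, 36.4, 26.9 and 42.5 TPM and 21.2, 23.5, 22.7 and 22.9 TPM (log2 fold change -0.55, SE 0.13, limma adjusted p = 0.04998). Pmaip1, the BH3-only protein Noxa, was at 72.5, 108, 86.7 and 88.5 TPM and 51.5, 59.6, 57.98 and 57.1 TPM (log2 fold change -0.64, SE 0.15, limma adjusted p = 0.04998). All 5 genes had 12 h ranges below their 3 h ranges. Removing the length trend took the adjusted p of Trp53inp1 to 0.0848, of Zmat3 to 0.163, of Ercc5 to 0.150 and of Pmaip1 to 0.133.

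The best known targets did not pass the test between the times. Mdm2, the ubiquitin ligase that limits p53, was at 3093, 3094, 2446 and 3264 TPM at 3 h and 2018, 2432, 2137 and 2163 TPM at 12 h (log2 fold change -0.44, SE 0.17, limma adjusted p = 0.133). Its ranges did not overlap, and every irradiated tumor of both groups was above the control range of 889 to 1777 TPM. Cdkn1a, the cyclin-dependent kinase inhibitor p21, was at 348, 438, 325 and 381 TPM and 301, 298, 359 and 266 TPM (log2 fold change -0.29, adjusted p = 0.154), beside 161 to 234 TPM in control. Ccng1, cyclin G1, had -0.58 (adjusted p = 0.0771) and Sesn2, sestrin 2, -0.55 (adjusted p = 0.0772). Gdf15, a secreted stress factor, was at 2.51, 3.85, 3.55 and 3.68 TPM at 3 h and 7.43, 2.28, 4.17 and 2.85 TPM at 12 h, with the highest 12 h value in mouse 1. Bax, the pore-forming death protein, had a value of 0.00 (SE 0.10).

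Some replication genes fell after 3 h. Of 40 genes of DNA replication and G1/S, 7 were lower at 12 h and 0 higher, against 1.42% lower among all genes. The list's median was -0.31 (-0.13 over all genes), 36 values were negative, where 71.5% of all genes were, and 13 members had 12 h ranges below their 3 h ranges, where 13.7% of all genes did. Against control the median was -0.04 at 3 h, -0.31 at 12 h and -0.14 at 24 h. Members lying wholly below control numbered 0 at 3 h, where 3.99% of all genes did, and 22 at 12 h, where 7.21% did. At 12 h against control 4 were called lower, against 0.450% of all genes. With the length trend removed the median was -0.16 and 2 members, Fen1 and Pcna, were called. Under median ratios the median was -0.17 and 0 were called, and with only both times in the fit 0 were called. Without RT 3 h mouse 1, 2 or 4 or RT 12 h mouse 1, 3 or 4 there were 0 calls, and without RT 3 h mouse 3 or RT 12 h mouse 2 there were 14.

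Fen1 (ENSMUSG00000024742, chr19:10199132-10204169, minus strand), the flap nuclease of Okazaki fragments, was at 40.8, 47.2, 39.3 and 52.3 TPM at 3 h and 30.9, 30.6, 31.2 and 31.8 TPM at 12 h (log2 fold change -0.51, SE 0.10, limma adjusted p = 0.0344). Pcna (ENSMUSG00000027342, chr2:132249162-132253314, minus strand), the sliding clamp, was at 196, 206, 159.5 and 219 TPM and 134, 145, 147 and 145 TPM (log2 fold change -0.44, SE 0.09, limma adjusted p = 0.0433). Both were lower than every control and every 3 h tumor at 12 h. Of the helicase subunits, Mcm2, Mcm4, Mcm6 and Mcm7 were called lower, whereas Mcm3 (-0.49, adjusted p = 0.0513) and Mcm5 (-0.52, adjusted p = 0.0585) were not. Mcm4 was at 61.1, 65.6, 50.2 and 74.3 TPM and 36.6, 46.4, 42.7 and 42.5 TPM (log2 fold change -0.56, SE 0.11, limma adjusted p = 0.0344). Mcm2 was at 51.1, 55.2, 44.7 and 60.5 TPM and 32.9, 38.3, 38.99 and 35.3 TPM (log2 fold change -0.53, SE 0.11, limma adjusted p = 0.0409). Mcm6 (ENSMUSG00000026355, chr1:128331590-128359664, minus strand), whose promoter is shown above, was at 141, 139, 108 and 141 TPM and 74.2, 103, 95.9 and 90.7 TPM (log2 fold change -0.54, SE 0.12, limma adjusted p = 0.0464). The other two, Mcm7 and the polymerase subunit Pole, had -0.40 (adjusted p = 0.04998) and -0.65 (adjusted p = 0.0498). Dtl, an adaptor of the ubiquitin ligase that removes Cdt1 and counted outside this list, was at 18.4, 18.8, 14.2 and 20.1 TPM and 7.90, 13.1, 10.2 and 11.9 TPM (log2 fold change -0.72, SE 0.14, limma adjusted p = 0.0344). Cdc6, which loads the helicase, missed the threshold at -1.06 (adjusted p = 0.0501), as did the ligase Lig1 at -0.59 (adjusted p = 0.0550) and cyclin E1, Ccne1, at -0.30 (adjusted p = 0.120). At 24 h Mcm4 was at 52.1, 57.3 and 58.3 TPM, Mcm2 at 50.9, 50.97 and 54.3 TPM and Fen1 at 38.4, 36.4 and 43.2 TPM, each higher than every RT 12 h mouse. Mcm7, at 79.99, 102 and 99.4 TPM at 24 h, overlapped its 12 h range of 82.6 to 93.3 TPM. Pole, at 7.89, 10.3 and 11.5 TPM, overlapped its 12 h range of 7.56 to 9.56 TPM.

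**Figure D3:**
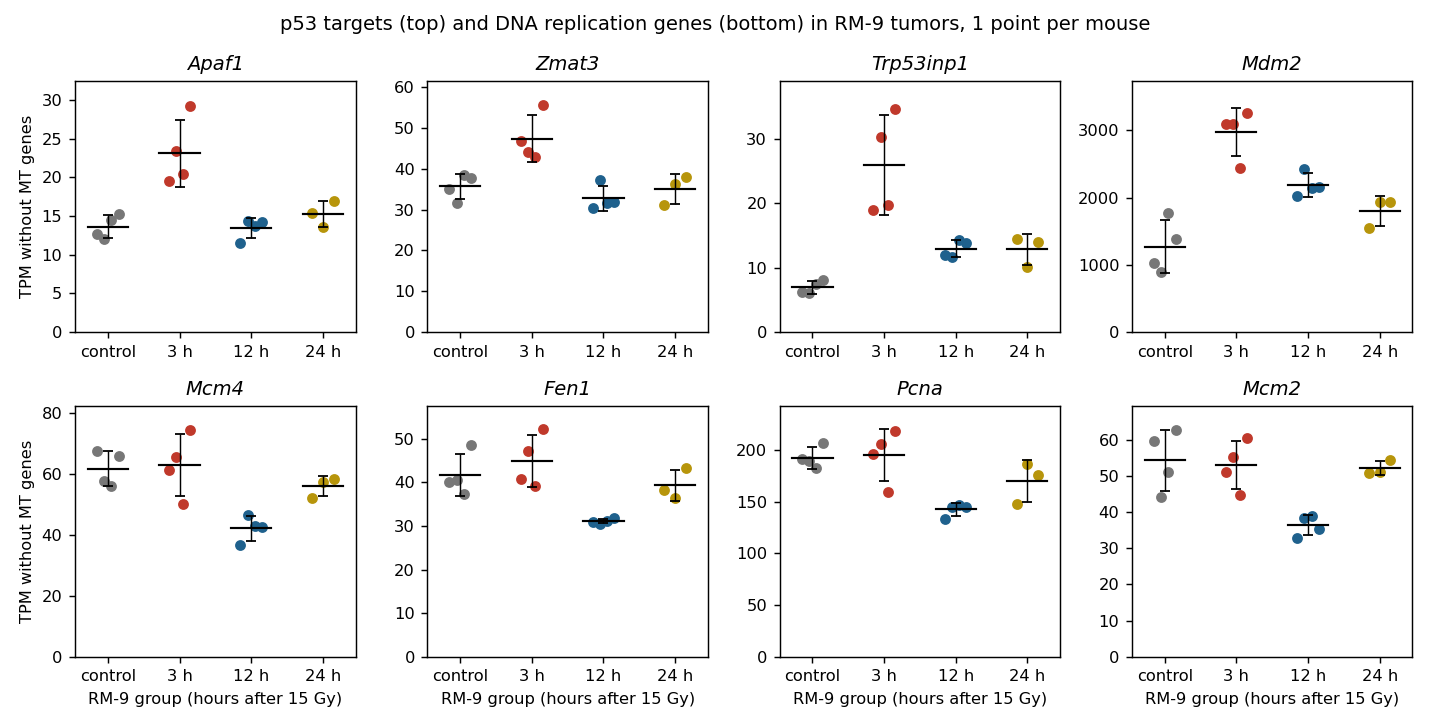
TPM without MT genes for 4 p53 targets (top) and 4 replication genes (bottom) in RM-9 tumors, 1 point per mouse, with mean and SD, in control and 3, 12 and 24 h after 15 Gy. The p53 targets peak at 3 h and stay above control at 12 h in Trp53inp1 and Mdm2, whereas the replication genes are level with control at 3 h and lowest at 12 h.

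The 12 largest falls were mostly genes outside these lists. Lpin1, a phosphatidate phosphatase, was at 6.42, 8.83, 5.91 and 8.56 TPM at 3 h and 2.79, 3.26, 4.37 and 4.06 TPM at 12 h (log2 fold change -0.94, SE 0.19, limma adjusted p = 0.0344). Klf11, a zinc finger transcription factor, was at 3.92, 4.92, 4.22 and 5.36 TPM and 2.68, 2.37, 2.04 and 2.41 TPM (log2 fold change -0.82, SE 0.13, limma adjusted p = 0.0228). Both groups were apart in these genes, and 12 h lay below control. Rb1 (ENSMUSG00000022105, chr14:73183673-73325822, minus strand), the retinoblastoma protein that restrains E2F, was at 11.4, 10.8, 9.73 and 13.6 TPM and 5.63, 8.10, 6.08 and 6.29 TPM (log2 fold change -0.76, SE 0.13, limma adjusted p = 0.0270). Klhl24, a cullin ligase adaptor, was at 11.6, 7.87, 8.57 and 10.1 TPM and 3.84, 6.57, 4.41 and 5.66 TPM (log2 fold change -0.85, SE 0.16, limma adjusted p = 0.0344). Rb1 and Klhl24 had been above all controls at 3 h and overlapped control at 12 h. Itgal, the integrin alpha L chain of leukocytes, had -0.80 and Utp20, of the small ribosomal subunit processome, -0.78. Herc3, a ubiquitin ligase, had -0.86, the Polycomb gene Phc3 -0.80, the histone H4 methyltransferase gene Suv420h1 (Kmt5b) -0.75 and Heca -0.74. Without the length trend, Klhl24, Klf11, Rb1 and Heca stayed under 0.05 (adjusted p = 0.0419, 0.0361, 0.00855 and 0.0195), as did Apaf1, and the other 7 did not. All 217 genes that fell had 12 h ranges below their 3 h ranges, beside 13.7% of all genes. Of the 36 that rose, 33 had 12 h ranges above, beside 1.18%. The calls were made on these same libraries, so both counts are a description. Among the 217, 208 had a value above 0 at 3 h against control, 30 were called higher there (0.985% of all genes) and 14 lower at 12 h against control (0.450%). Of all 10953 genes with a value below 0 from 3 h to 12 h, 71.4% had a value above 0 at 3 h against control, with the RT 3 h libraries shared.

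The 253 called genes were sorted by where both times stood against the control mice. Since the same 3 h and control libraries fix both steps, the classes are a description. An early change had ended in 125 genes: all 3 h tumors lay beyond all controls and the 12 h range overlapped control again. In 18 of these the 3 h level had been low and in 107 it had been high, beside 3.99% and 10.0% of all genes that lay wholly below and above control at 3 h. A change had begun in 62 genes, 9 upward and 53 downward, beside 1.36% and 7.21% of all genes beyond control at 12 h. In 3 genes a change continued, in 8 it crossed from one side of control to the other, and 55 met none of these rules. Many of these positions were not calls against control. At 3 h, 12 of the 18 and 27 of the 107 were called, beside 0.215% lower and 0.985% higher among all genes. At 12 h, 0 of the 9 and 14 of the 53 were called, beside 0.0652% higher and 0.450% lower among all genes. The 3 that continued were all called at 3 h, and 0 of them at 12 h. After removal of the length trend, 18 of 18 early falls that ended and 9 of 9 late rises were still called, against 14 of 107 early rises that ended and 11 of 53 late falls. The 107 had a median transcript of 4649 bases and the 18 one of 1872.5 bases. For the 9 late rises it was 3342 bases and for the 53 late falls 3494 bases.

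The early falls that ended held Cdkn3, Cenpa, Plk1, Ccnb1, Ccnb2, Nek2, Cdc20 and Sapcd2. Late rises held Ube2c, Prc1, Hmmr, Nusap1, Terf1, Arl6ip1 and Ugt1a6a. Early rises that ended held Apaf1, Zmat3, Pmaip1, Ercc5, Rb1, Klhl24, Herc3, Phc3 and Heca. Late falls held the replication genes Fen1, Pcna, Mcm2, Mcm4, Mcm6, Mcm7 and Pole together with Dtl, Lpin1, Klf11 and Itgal. The 3 genes that continued were Trp53inp1, Abhd4 and Tmem43. Abhd4, a lysophospholipase, was at 49.3, 66.9, 61.4 and 66.9 TPM at 3 h and 39.6, 41.2, 45.6 and 42.6 TPM at 12 h beside 30.1 to 38.8 TPM in control (log2 fold change -0.52, SE 0.11, limma adjusted p = 0.0375). Tmem43, of the inner nuclear membrane, was at 107, 115, 105 and 109.8 TPM and 83.7, 96.7, 91.6 and 89.3 TPM beside 75.8 to 83.4 TPM (log2 fold change -0.27, SE 0.06, limma adjusted p = 0.0439). Of the genes that crossed control, 1190002F15Rik and Aurka went from below to above. Fam76a (-0.48), the chromatin remodeler Smarca5 (-0.38) and the ESCRT ATPase Vps4b (-0.37) went from above to below. With the length trend removed, Smarca5 (-0.12, adjusted p = 0.352), Vps4b (-0.17, adjusted p = 0.154) and Tmem43 (-0.16, adjusted p = 0.133) lost their calls, and 2 of 6 genes that crossed downward and 1 of 3 that continued were still called.

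Lists outside the cell cycle and p53 gave few calls. Among 25 genes of homologous recombination and the Fanconi anemia pathway none was called, and the median transcript was of 4770 bases. Their median log2 fold change of -0.30 became -0.06 with the length trend removed and -0.18 under median ratios. Atm, the kinase of double-strand breaks, was at 4.88, 3.81, 3.76 and 5.80 TPM at 3 h and 1.501, 3.20, 2.81 and 2.19 TPM at 12 h (log2 fold change -0.81, limma adjusted p = 0.0625). Its ranges were apart. Interferon-stimulated genes (36 tested) and guanylate-binding protein genes (29 tested) had 0 calls and medians of -0.30 and -0.37. These were -0.21 and -0.25 with the length trend removed and -0.17 and -0.24 under median ratios. Eif2ak2, the RNA-activated kinase PKR, was at 22.8, 21.7, 14.2 and 25.2 TPM and 7.60, 16.1, 13.7 and 9.73 TPM (-0.83, adjusted p = 0.0570).

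Chemokine lists had positive medians and 0 calls. The 6 genes of CXCR2 and its ligands, which draw neutrophils, all had values above 0, with a median of 0.54. Cxcl2 was at 5.56, 1.49, 0.779 and 0.706 TPM at 3 h and 2.10, 5.67, 3.33 and 3.14 TPM at 12 h (0.90, SE 0.48, limma adjusted p = 0.249), with the 3 h value of mouse 1 inside the 12 h range. The 14 CC chemokine genes had a median of 0.24, and Ccl4, a chemokine that draws leukocytes, went from 3.55, 2.48, 2.29 and 3.94 TPM to 6.02, 4.69, 4.62 and 7.30 TPM without overlap (0.79, adjusted p = 0.0593). Ribosomal protein genes (88 tested) and nuclear genes of oxidative phosphorylation (77 tested), whose transcripts are short, had medians of 0.12 each and 0 calls. Rps27 was at 1145, 1636, 1188 and 1153 TPM and 2119, 1463, 1863 and 2112 TPM (0.56, adjusted p = 0.0590). With the length trend removed, the ribosomal protein and oxidative phosphorylation medians stayed above 0, at 0.15 and 0.13. The ribosomal list then had 0 calls. The oxidative phosphorylation list had 1 gene higher, Atp5l-ps1 (0.35, limma adjusted p = 0.0461), where 0.535% of all genes were.

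A few calls came from 3 further lists, all of them lower, beside 1.42% lower among all genes. The Nrf2 list had 1 of 22 and the BCL2 family 1 of 14. In the Nrf2 list Txnrd1, thioredoxin reductase, was at 129, 115, 135 and 142 TPM at 3 h and 89.2, 108, 99.3 and 99.1 TPM at 12 h (log2 fold change -0.39, SE 0.09, limma adjusted p = 0.04998). Pmaip1 was the 1 call of the BCL2 family, where Bcl2l11, the death protein Bim, had -0.51 (adjusted p = 0.0587). The family had 1 member higher and 0 lower once the length trend was removed, and the same counts under median ratios. Pmaip1 was then not called (limma adjusted p = 0.133 and 0.140). Of 17 circadian clock genes 2 were lower: Nr1d2, the repressor REV-ERB beta, at 23.1, 18.8, 17.1 and 22.6 TPM and 12.1, 15.1, 12.8 and 15.1 TPM (log2 fold change -0.54, SE 0.13, limma adjusted p = 0.0488), and Tef, an output factor of the clock (log2 fold change -0.57, SE 0.13, limma adjusted p = 0.0492). With the length trend removed the adjusted p was 0.117 for Txnrd1, 0.126 for Nr1d2 and 0.0946 for Tef, and 0 clock genes were called under it or under median ratios. The clock list's median was 0.00, and 0.17 with the length trend removed. Per1 (0.19), Per2 (0.25), Dbp (-0.39), Arntl (0.32) and Nfil3 (0.64) did not pass the test. The hour of day at which tumors were taken is not given in the sources used here, and it cannot be told apart from the hours after RT. Cholesterol synthesis genes (23 tested) had a median of -0.28, or -0.15 with the length trend removed. They and the integrated stress response, heat shock, hypoxia, NF-kB, glucocorticoid, TGF-beta and YAP, immediate early and histone lists had 0 calls each. Immediate early genes had a median of -0.08 that turned to 0.08 with the length trend removed.

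**Figure D4:**
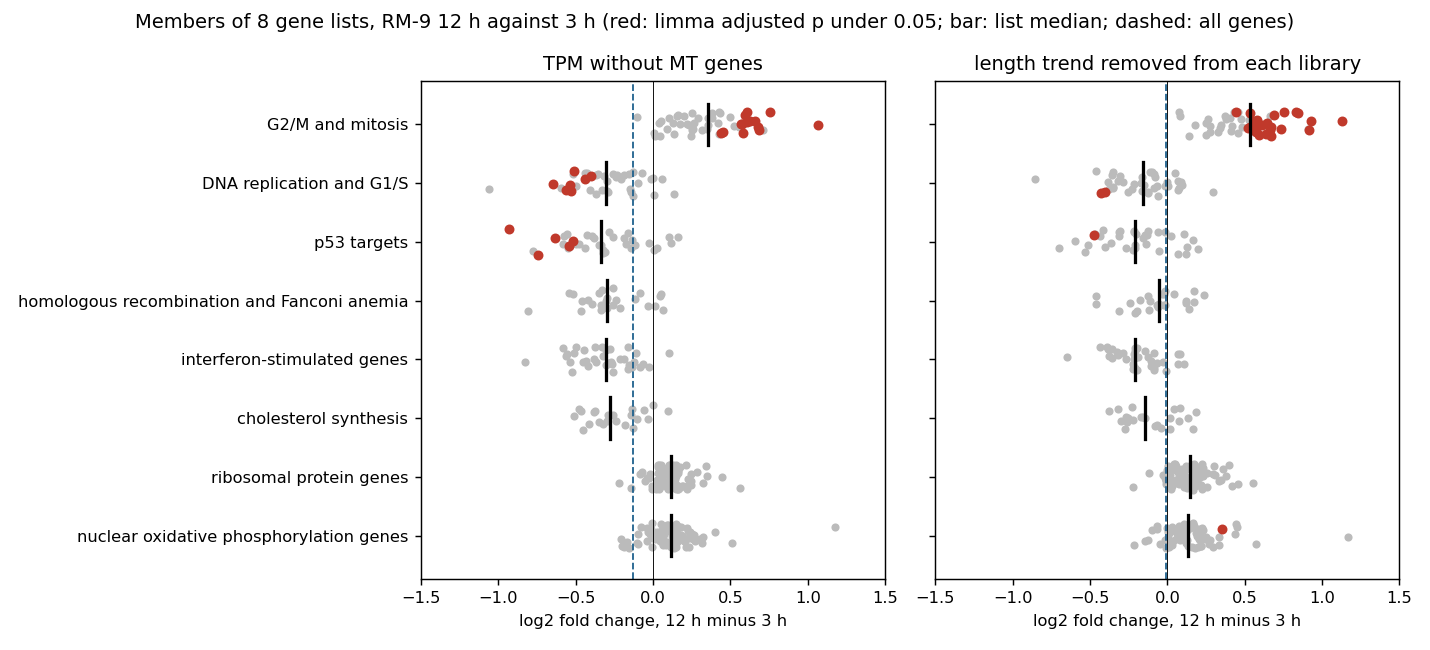
Log2 fold change from 3 h to 12 h after RT for the members of 8 gene lists in RM-9, 1 point per gene, in TPM without MT genes (left) and with the length trend removed from each library (right). Red points have a limma adjusted p under 0.05, black bars are list medians and the dashed line is the median of all genes. The G2/M list stands to the right in both panels (medians 0.35 and 0.53), while the median of the homologous recombination list moves from -0.30 to -0.06 and that of p53 targets from -0.33 to -0.21.

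No cell type list had a call, and the summed levels at both times overlapped for every one of them. Neutrophil markers summed to 43.6 to 90.1 TPM at 3 h and 46.8 to 70.7 TPM at 12 h, with Elane and Camp listed at 0 TPM. T and NK cell markers summed to 16.4 to 38.9 TPM and 27.2 to 52.0 TPM, with Cd28 at 0 TPM. Gzmb, a granzyme of cytotoxic cells, was at 13.9, 9.94, 5.25 and 10.1 TPM at 3 h and 19.2, 12.3, 14.1 and 13.2 TPM at 12 h (0.61, limma adjusted p = 0.160). Macrophage markers summed to 942 to 1440.1 TPM and 756 to 1547 TPM, dendritic cell markers to 27.04 to 29.6 TPM and 25.5 to 31.7 TPM, and endothelial markers to 116 to 142 TPM and 104 to 160 TPM. Fibroblast and pericyte markers summed to 1754 to 3559 TPM and 1489 to 2493 TPM, and platelet and red cell markers to 110 to 131 TPM and 91.6 to 275 TPM, with Gp9 at 0 TPM. B cell markers stayed under 1 TPM in sum, with Ms4a1 and Mzb1 at 0 TPM, and skin and fat markers summed to 7.64 to 12.2 TPM and 6.37 to 12.4 TPM, with Krt1 and Plin1 at 0 TPM. The part of any of these cell types in the changes above was not tested.

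MC-38 tumors of the same design (4 mice each at 3 h and 12 h) served to ask whether the course differed between tumor models. The G2/M list moved the same way in both, with a median of 0.72 in MC-38 and 0.35 in RM-9, and 35 of the 36 genes that rose in RM-9 had a value above 0 in MC-38, as did 62.4% of all genes. In MC-38, 1.09% of 16266 genes were called higher and 0.129% lower. Plk1 in MC-38 was at 25.02, 44.9, 25.4 and 90.3 TPM at 3 h and 98.8, 125, 126 and 104 TPM at 12 h, where mouse 4 at 3 h stood apart from the other 3. Aurka there was at 39.1, 55.99, 37.1 and 128 TPM and 128, 164, 162 and 140.3 TPM. The difference between models was -0.82 for Plk1, -0.76 for Aurka and 0.29 for Cdkn3 (limma adjusted p = 0.120, 0.108 and 0.488), and 0 of the 36 rises differed between models by this test. With the length trend removed 1 did, 1190002F15Rik, which was higher in RM-9 by 1.15 (adjusted p = 0.0263). Of the 217 falls, 59 had a value below 0 in MC-38, as did 37.4% of all genes, and 131 differed between models, 7 with the length trend removed. Both sets were chosen on the RM-9 libraries that also enter this test, so these counts are a description.

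Over 16266 genes, the change from 3 h to 12 h was higher in RM-9 than in MC-38 for 72 (0.443%) and lower for 785 (4.83%). These became 94 and 18 with the length trend removed. Single mice moved the total of 857: it was 239 and 142 without RM-9 RT 3 h mouse 1 and 4, 10, 2440, 543 and 207 without RM-9 RT 12 h mouse 1 to 4, 114 and 180 without MC-38 RT 3 h mouse 1 and 2, and 343, 300 and 35 without MC-38 RT 12 h mouse 2 to 4. The 5 genes with the smallest p were all lower in RM-9 and held with the length trend removed. Nid2, the basement membrane protein nidogen 2, was at 4.18, 3.82, 5.04 and 5.13 TPM in RM-9 at 3 h and 2.85, 2.61, 2.80 and 2.46 TPM at 12 h, against 16.1, 14.4, 16.6 and 14.8 TPM and 27.9, 26.4, 31.8 and 36.98 TPM in MC-38. The difference was -1.62 (adjusted p = 0.00794, and 0.0113 with the length trend removed). Plcg2, phospholipase C gamma 2, was at 17.1, 13.2, 13.7 and 17.3 TPM and 10.5, 10.2, 9.54 and 10.9 TPM in RM-9 and at 36.3, 35.3, 36.5 and 41.02 TPM and 47.8, 55.4, 49.5 and 49.7 TPM in MC-38 (-0.98, adjusted p = 0.00794). The spliceosome genes Snrnp200 and Prpf8 had -1.10 and -0.99, and Ctr9, of the PAF elongation complex, -0.68 (adjusted p = 0.0138 for each). These 3 fell in RM-9 and had values of 0.46, 0.35 and 0.17 in MC-38.

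Between models, the medians of lists differed in both directions, beside a median difference of -0.20 over all genes that became 0.04 with the length trend removed. The counts of list members below stand beside 0.443% of all genes higher and 4.83% lower in RM-9. With the length trend removed, 94 of 16465 genes were higher and 18 lower. Replication genes had a median of -0.07 in MC-38, and 6 of 40 were lower in RM-9, 0 with the length trend removed. Targets of p53 had -0.02, with 3 of 35 lower in RM-9 and 1 with the length trend removed. Cholesterol synthesis genes had a median of 0.49 in MC-38 and -0.28 in RM-9, with 8 of 23 lower in RM-9 and 0 with the length trend removed. Ribosomal protein genes had -0.10 in MC-38 and 0.12 in RM-9, and 6 of 88 were higher in RM-9 with the length trend removed. Rps27 was among them, at 0.92 (adjusted p = 0.0202, and 0.0177 with the trend removed).

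**Figure D5:**
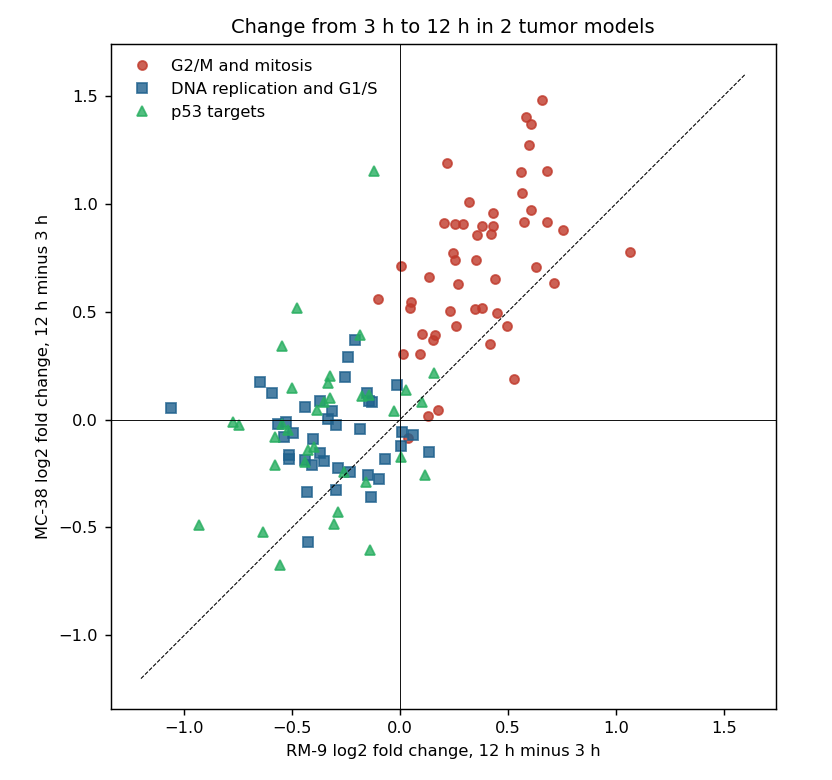
Log2 fold change from 3 h to 12 h after RT in RM-9 (x axis) and MC-38 (y axis) for genes of G2/M and mitosis (circles), DNA replication and G1/S (squares) and p53 targets (triangles), with the line of equal change dashed. G2/M genes lie above 0 on both axes for nearly all members and mostly above the line (medians 0.35 and 0.72). On the RM-9 axis 36 of 40 replication genes and 30 of 35 p53 targets lie left of 0. Their medians on the MC-38 axis are near 0 (-0.07 and -0.02), with single members further off.

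The libraries of both groups differed in 2 further measures. Depth, read off the ratio of FPKM to coverage and given in units of 1000000 reads, was 26.2 to 29.4 at 3 h and 23.7 to 25.2 at 12 h, without overlap, and 23.0 to 25.1 in control. MT genes held 49.1 ± 1.66% of deposited TPM at 3 h (SD, n = 4) and 54.1 ± 2.18% at 12 h (n = 4), a difference of 4.94 percentage points (two-sided exact permutation test, p = 0.0286, the smallest that 70 assignments allow). mt-Nd4l alone, a subunit of complex I, held 37.4 ± 1.39% and 41.1 ± 1.65% (difference 3.75, exact permutation p = 0.0286). Since TPM sums to a fixed total, this shift lowers other genes in TPM as deposited, where the median log2 fold change was -0.25 and 4015 genes were called lower. Nuclear copies of mitochondrial genes on chromosome 1 held a further 14.1 to 16.8% of rescaled TPM at 3 h and 15.5 to 18.9% at 12 h. The part of depth and of these shares in the other results was not tested.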

How the data were processed

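Whole RM-9 tumors were profiled by poly-A RNA-seq. The authors deposited 1 table per library with coverage, FPKM and TPM for each of 46072 genes. bcl2fastq 2.17 and GRCm39 are named in the submitters' processing notes, but 45137 gene IDs are shared with GENCODE M21 (GRCm38), all on the same chromosome and 91.1% with the same start or end, so coordinates are given as the files have them. The aligner and counter are not given in the sources used here. Deposited TPM was summed per gene ID and rescaled to 1000000 without MT genes. Deposited coverage and FPKM served only to read off depth.

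limma 3.58.1 (R 4.3.3, lmFit and eBayes with a trend) was run on log2(TPM + 0.5) over all 15 RM-9 libraries in 4 groups, with the contrast RT 12 h minus RT 3 h and Benjamini-Hochberg adjustment. The difference between tumor models was an interaction contrast over all 31 libraries. Shares of MT genes were compared by an exact permutation test. The fit was tested on simulated data. Tables and plots were made with Python 3.11.15, pandas 2.3.3, numpy 2.4.6 and matplotlib 3.10.9.

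The genes, lists and comparisons were chosen with earlier results of these data known. Genes named are the 12 largest rises and falls (adjusted p under 0.05, mean of at least 1 TPM, no overlap between groups), the 3 smallest p of a list with the members needed to describe it, the 5 largest of a class and the 5 smallest p between models. Alternatives were pseudocounts 0.1 and 1, other scalings, filters and fits, and each mouse left out. The removal of a loess trend on log2 transcript length (span 0.5) from each library was chosen after seeing the data. It took out the general level of each library as well. Single values of some cell type markers are not reported here.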

Additional observations from a re-analysis of the deposited data

Results flagged for a closer look

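In 11 of 174 sets of 4 values examined, 1 mouse stood apart from the other 3 by Dixon's test at the 95% level, where chance gives about 1 in 20. The mouse was the highest for Prc1 in RT 3 h mouse 4 (63.4 TPM), Cdc20 in RT 12 h mouse 3 (85.0 TPM), Itgal in RT 3 h mouse 4 (5.07 TPM), Per1 in RT 3 h mouse 1 (11.54 TPM), Nfil3 in RT 3 h mouse 1 (12.6 TPM), Cxcl2 in RT 3 h mouse 1 (5.56 TPM), Rps27 in RT 3 h mouse 2 (1636 TPM) and Insig1 in RT 3 h mouse 4 (48.9 TPM). It was the lowest for Pcna in RT 12 h mouse 1 (134 TPM), Mcm6 in RT 3 h mouse 3 (108 TPM) and Insig1 in RT 12 h mouse 1 (18.03 TPM). Mouse 1 and mouse 4 of RT 3 h made up 6 of these 11.

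The change from 3 h to 12 h differed between RM-9 and MC-38 (limma interaction, adjusted p under 0.05) for 27 of 83 genes examined. Of these, 6 stayed under 0.05 once the length trend was removed: Plcg2 (-0.98, adjusted p = 0.00794, and 0.0141 without the trend), Nid2 (-1.62, adjusted p = 0.00794, and 0.0112 without the trend), Snrnp200 (-1.10, adjusted p = 0.0138, and 0.0112 without the trend), Ctr9 (-0.68, adjusted p = 0.0138, and 0.0318 without the trend), Prpf8 (-0.99, adjusted p = 0.0138, and 0.00885 without the trend) and Rps27 (0.92, adjusted p = 0.0202, and 0.0177 without the trend). The other 21 differences, RM-9 minus MC-38 on the log2 scale, were -0.54 for Mcm4, -0.52 for Mcm2, -0.82 for Pole, -1.11 for Cdc6, -0.78 for Dtl, -0.72 for Apaf1, -0.47 for Zmat3, -1.07 for Herc3, -0.90 for Klhl24, -1.13 for Phc3, -0.86 for Utp20, -0.84 for Rb1, -1.19 for Suv420h1, -0.76 for Heca, -0.71 for Abhd4, -0.37 for Tmem43, -0.58 for Fam76a, -0.40 for Smarca5, -0.49 for Vps4b, -0.52 for Txnrd1 and -0.72 for Lig1. Their adjusted p was 0.0202 to 0.0480, and 0.0559 to 0.864 without the trend.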

How the results depend on the processing

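As reported, 36 genes were higher and 217 lower at 12 h, the classes held 125 ended, 62 begun, 3 continued, 8 reversed and 55 other genes, and the called members were 14 of the G2/M list (higher), 5 p53 targets and 7 replication genes (lower). In all settings below, 857 is the count to compare for genes that differed between tumor models. Pseudocounts of 0.1 and 1 kept every one of these counts within 1.5 times. No called gene named in the text changed direction under any setting.

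TPM as deposited gave 47 genes higher and 4015 lower, 1024 ended, 1091 begun, 19 continued, 44 reversed and 1884 other, 23 p53 targets and 22 replication genes lower, and 2785 genes between models. Here the MT share enters every value by construction. Leaving out the nuclear copies of mitochondrial genes gave 23 higher and 14 lower, 16 ended, 13 begun, 0 continued, 5 reversed and 3 other, 8 G2/M genes, 1 p53 target and 0 replication genes. Median ratios gave 93 higher and 30 lower, 53 ended, 40 begun and 17 other, 23 G2/M genes, 3 p53 targets and 0 replication genes, and 323 between models. Without a filter there were 14 higher and 35 lower, 21 ended, 22 begun, 0 continued and 0 other, 5 G2/M genes, 1 p53 target and 0 replication genes, and 422 between models. With a mean of at least 5 TPM there were 76 higher and 672 lower, 326 ended, 141 begun, 6 continued and 264 other, 8 p53 targets and 12 replication genes. These 2 filters change how many genes share the adjustment.

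With only RT 3 h and RT 12 h in the limma fit, 0 genes were higher and 0 lower, every class held 0, and 0 G2/M, 0 p53 and 0 replication genes were called, with 350 genes higher and 3510 lower at an unadjusted p under 0.05. With only the 4 groups contrasted, 2267 genes differed between models. Without a trend in eBayes 80 genes were lower, 53 ended, 37 begun, 1 continued, 4 reversed and 11 other, with 9 G2/M genes, 3 p53 targets and 2 replication genes. A size of at least 1 on the log2 scale left 2 higher and 0 lower, 1 ended, 0 begun, 0 continued, 1 reversed and 0 other, 1 G2/M gene, 0 p53 targets and 0 replication genes. Removing the length trend gave 82 higher and 31 lower, 54 ended, 30 begun, 13 reversed and 14 other, 25 G2/M genes, 1 p53 target and 2 replication genes, and 112 between models. The cause of each of these moves was not tested.

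The replicate numbers did not pair the mice: deviations of same-numbered RT 3 h and RT 12 h mice correlated at -0.221, -0.33, -0.333 and -0.016 across genes, and 0 of 4 RT 3 h mice correlated best with its own number. The replicate block gave 5 genes higher and 0 lower, 2 ended, 1 begun, 0 continued, 2 reversed and 0 other, 4 G2/M genes, 0 p53 targets and 0 replication genes (364 higher and 3386 lower at an unadjusted p under 0.05, limma), and 594 between models.

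Leaving out 1 mouse at a time gave 0 to 272 genes higher and 0 to 2074 lower, 0 to 815 ended, 0 to 536 begun, 0 to 10 continued, 0 to 56 reversed and 0 to 929 other, 0 to 20 G2/M genes, 0 to 11 p53 targets and 0 to 14 replication genes, and 10 to 2440 between models. The 272 rises and 2074 falls came without RT 12 h mouse 2, and the 0 rises without RT 12 h mouse 3. After removal of the length trend the ranges were 38 to 233 higher and 5 to 197 lower, 21 to 144 ended, 9 to 172 begun, 1 to 4 continued, 12 to 46 reversed and 0 to 64 other, 15 to 31 G2/M genes, 0 to 2 p53 targets and 0 to 6 replication genes. In these, 28 genes had ended without RT 3 h mouse 1, 81 were higher and 50 had ended without RT 3 h mouse 4, and 28 G2/M genes were called without RT 12 h mouse 2. The difference in MT share was 3.90 to 5.76 percentage points and that of mt-Nd4l 2.98 to 4.42 (two-sided exact permutation p up to 0.0571).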
